A study of Mus musculus with 6 samples.

Results

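The 72 genes described here encode the heat shock proteins and the DnaJ (J-domain) chaperones of the mouse. They were taken from 18193 genes on the array as every gene whose probe sets carry a single symbol starting with Dnaja, Dnajb, Dnajc, Hspa, Hspb, Hspd, Hspe, Hsph or Hsp90, which gave 174 probe sets. Each gene was read by its brightest probe set, the one with the highest mean log2 value over the 6 arrays. Of the 72 genes, 61 reached a mean of 50 in at least 1 group and were tested. The tested genes comprised 23 of 27 DnaJ C genes, 12 of 13 HSP70 genes, 9 of 13 DnaJ B genes, 6 of 8 small heat shock protein genes and all 4 DnaJ A genes. The 2 HSP90 genes Hsp90aa1 and Hsp90b1, the 2 chaperonin genes Hspd1 and Hspe1, the HSP110 gene Hsph1, and Hspbp1 and Hspbap1, which encode proteins that bind heat shock proteins, were tested as well.

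Ribosome-bound RNA of the cortex was measured in mice that carry the S100a10 bacTRAP transgene of line ES691, in which the S100a10 promoter region drives a tagged ribosomal protein, and that lack p11, the product of S100a10, constitutively. Mice of the FLX group drank fluoxetine, a serotonin reuptake inhibitor, at 0.167 mg/ml in a 1% saccharine solution for 15 to 18 days, and mice of the VEH group drank 1% saccharine alone for the same time. Each group had 3 arrays, labelled biological replicates 1 to 3, on a background backcrossed for 3 to 5 generations to C57BL/6 from FVB, and both groups carry the deletion, so nothing here compares p11 genotypes. According to the submitters, cells other than neurons carry the tag too. The sources used here do not give the age of the mice or the number of animals behind an array. In ribosome-bound RNA of a tissue, fewer cells of a type and less RNA per cell cannot be told apart.

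Chaperones hold unfolded protein in solution and help it to fold. HSP70 proteins bind short unfolded stretches in a cycle driven by ATP. J-domain proteins deliver the client and start ATP hydrolysis, and nucleotide exchange factors such as HSP110 reset the cycle. HSP90 finishes the folding of kinases and receptors, small heat shock proteins hold clients without ATP, and the chaperonin of the mitochondrion encloses its client in a chamber. Each compartment has its own set: heat shock factor 1 drives the heat-inducible cytosolic genes through heat shock elements, and the unfolded protein response drives those of the endoplasmic reticulum (ER) through ER stress elements. In neurons, J-domain proteins also uncoat clathrin vesicles and guard the synaptic vesicle.

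Arrays of replicates 1 and 2 of both groups correlated at r = 0.987 to 0.995 over the tested probe sets. The replicate 3 arrays resembled each other (r = 0.973) more than the other 4 arrays (r = 0.867 to 0.916). The summed level of 7 leptomeningeal and fibroblast markers was 1135 in FLX replicate 3 and 2254 in VEH replicate 3, against 14687 to 28743 in the other 4 arrays. That of 6 oligodendrocyte markers was 71751 and 66951 in the replicate 3 arrays of FLX and VEH, against 21759 to 25748 in the others. Of these markers, 5 had both replicate 3 arrays above the other 4 arrays and 1 had both below. Summed interneuron markers reached 44173 and 34230 in replicate 3 of FLX and VEH, against 16185 to 22282. Most of this was Gad1, and of the 7 markers 4 had both replicate 3 arrays above and 3 overlapped. Excitatory neuron markers summed to 19066 and 20057 in replicate 3 of FLX and VEH, against 10929 to 13679. Of these 6 markers 4 had both replicate 3 arrays above the others. Slc17a7 had both below, at 148 in FLX and 118 in VEH, against 176 to 242, and Neurod6 overlapped. Astrocyte markers summed to 39754 to 50461 in FLX and 38725 to 42615 in VEH, and microglial ones to 1926 to 2912 and 1566 to 2953. The microglial sum was lowest in replicate 3 of each treatment, at 1926 in FLX and 1566 in VEH. Of the 6 tested microglial markers, 3 had both replicate 3 arrays below the other 4 arrays, 1 had both above and 2 overlapped. Of the 8 astrocyte markers, 5 had a positive FLX minus VEH difference and 3 a negative one, and 4 were higher in 3 of 3 pairs. Among these 4, Gfap was higher in FLX by 1.22 to 1.77 log2 and Aqp4 by 0.59 to 1.94. Adjusted limma p was 0.9998 for both genes, and 0.574 for Gfap and 0.623 for Aqp4 with the replicate block. The 6 layer 5 pyramidal markers summed to 45544 to 52826 in FLX and 41025 to 45860 in VEH, most of it Pcp4. Of these 6, Bcl11b, Fezf2, Bcl6 and Crym were higher in replicate 3 of both treatments, Pcp4 and Sulf2 lower. Endothelial markers were near the minimum, at 194 to 403 in FLX and 143 to 396 in VEH, with Pecam1, Cdh5, Flt1 and Tek below 50. No marker was listed at 0. The log2 excess of 3′ over 5′ control probes, a measure of RNA integrity, was 2.08 to 2.20 in FLX and 2.18 to 2.33 in VEH as the mean of Gapdh and Actb. The 2 controls went opposite ways in replicate 3. Gapdh was lowest there in each treatment, at 1.83 in both, against 1.99 to 2.32 in the other arrays. Actb was highest there in each treatment, at 2.32 in FLX and 2.56 in VEH, against 2.18 to 2.34 in the other arrays. The part of these differences in the results below was not tested. S100a10 itself had 2222, 2037 and 349 in FLX arrays and 3111, 2248 and 643 in VEH arrays for its brightest probe set, whose type can match several transcripts. Its other 2 probe sets were below 50 in all arrays, at 41.9 to 44.5 and 7.35 to 8.22 in FLX and 34.0 to 49.4 and 4.98 to 8.03 in VEH. Since no array with intact p11 was analysed here, these values check nothing about the genotype.

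The promoters of the chaperones show which of the stress elements each gene carries, and 6 that hold such an element are printed. RefSeq windows of 300 bases, 250 before and 50 after the start of the gene, were found for 59 of the 72 genes (build GRCm38.p6). Capitals mark an ER stress element in Hspa5, Hsp90b1 and Dnajc3, which is CCAAT and CCACG with 9 bases between them, on either strand. In Hspa1b, Hspb1 and Hspe1 they mark heat shock elements, GAANNTTC or TTCNNGAA on either strand, which may overlap each other.
Hspa5, chr2:34771840-34772139, plus strand: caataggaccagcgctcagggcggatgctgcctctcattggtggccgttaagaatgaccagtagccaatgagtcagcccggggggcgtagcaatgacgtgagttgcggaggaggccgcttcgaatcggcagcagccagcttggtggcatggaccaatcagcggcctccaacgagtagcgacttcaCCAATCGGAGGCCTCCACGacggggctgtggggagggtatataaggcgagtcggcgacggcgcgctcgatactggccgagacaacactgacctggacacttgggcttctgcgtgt
Hsp90b1, chr10:86705395-86705694, minus strand: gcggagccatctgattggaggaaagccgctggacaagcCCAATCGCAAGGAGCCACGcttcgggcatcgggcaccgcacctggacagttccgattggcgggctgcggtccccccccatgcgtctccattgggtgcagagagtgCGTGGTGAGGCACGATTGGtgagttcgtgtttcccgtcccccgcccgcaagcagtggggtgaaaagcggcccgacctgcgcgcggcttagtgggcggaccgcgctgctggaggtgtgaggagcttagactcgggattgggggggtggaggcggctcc
Dnajc3, chr14:118937682-118937981, plus strand: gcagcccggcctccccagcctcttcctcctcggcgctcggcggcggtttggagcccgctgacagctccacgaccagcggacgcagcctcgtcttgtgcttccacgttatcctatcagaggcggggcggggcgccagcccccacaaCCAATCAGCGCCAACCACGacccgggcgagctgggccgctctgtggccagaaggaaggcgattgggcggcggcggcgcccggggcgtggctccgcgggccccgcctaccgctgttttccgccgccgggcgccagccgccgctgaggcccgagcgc
Hspa1b, chr17:34959189-34959488, minus strand: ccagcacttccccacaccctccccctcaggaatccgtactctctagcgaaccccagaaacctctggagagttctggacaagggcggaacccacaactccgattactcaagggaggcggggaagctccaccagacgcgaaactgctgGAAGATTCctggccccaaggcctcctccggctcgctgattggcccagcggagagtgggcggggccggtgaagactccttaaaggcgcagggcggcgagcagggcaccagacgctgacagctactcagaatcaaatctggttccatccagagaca
Hspb1, chr5:135887669-135887968, plus strand: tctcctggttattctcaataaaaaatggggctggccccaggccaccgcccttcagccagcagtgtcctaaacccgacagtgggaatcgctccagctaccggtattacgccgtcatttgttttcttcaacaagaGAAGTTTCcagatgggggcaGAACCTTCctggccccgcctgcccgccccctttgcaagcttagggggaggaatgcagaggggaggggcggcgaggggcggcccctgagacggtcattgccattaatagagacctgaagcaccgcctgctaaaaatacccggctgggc
Hspe1, chr1:55087898-55088197, plus strand: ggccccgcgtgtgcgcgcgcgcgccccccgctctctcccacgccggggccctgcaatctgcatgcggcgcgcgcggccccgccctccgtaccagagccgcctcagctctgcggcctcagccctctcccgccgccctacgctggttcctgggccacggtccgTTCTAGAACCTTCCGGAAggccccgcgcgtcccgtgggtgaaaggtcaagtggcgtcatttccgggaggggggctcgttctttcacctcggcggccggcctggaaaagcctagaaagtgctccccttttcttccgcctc

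An ER stress element was present in 0.137% of the 27025 genes with a promoter window and in 3 of the 59 chaperone genes, the 3 printed first. The Hsp90b1 window holds 2 of them, on opposite strands. A heat shock element was present in 17.0% of all genes with a window and in 16 of the 59 chaperone genes. Among the heat-inducible genes 9 of 11 held one (Dnaja1, Dnajb4, Hspa1a, Hspa1b, Hspb1, Hspb8, Hspd1, Hspe1 and Hsph1), and among the ER genes 1 of 11 did, Dnajc10. A longer form of 3 alternating units was found in 0.662% of all genes and in Dnajb6, Hspd1, Hspe1 and Hsph1. Hspd1 and Hspe1 lie head to head on opposite strands, and their windows overlap and share these elements. A match of letters is a description and not a site of binding.

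No chaperone gene differed between FLX and VEH at an adjusted p of 0.05 (limma with Benjamini-Hochberg adjustment over 22200 probe sets), and 0% of the 12213 genes tested by their brightest probe set did. The smallest unadjusted limma p among the 61 genes was 0.104, for Dnajb14, and every adjusted p was 0.9998. At an unadjusted p under 0.05, 0 chaperone genes were called in either direction, where 0.172% of all genes were called higher and 0.131% lower in FLX. With the replicate number as a block the adjusted count was again 0, with a smallest adjusted p of 0.623. In that fit Hspa13 and Hspa4l were higher and Hspa12b and Hspb1 lower at an unadjusted p under 0.05, that is 2 genes each way of 61, beside 3.6% of all genes higher and 4.04% lower.

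The median log2 difference, FLX minus VEH, was 0.13 over the 61 chaperone genes, with 44 positive and 17 negative. Over all 12213 genes it was 0.05, with 7101 positive and 5112 negative. In 3 chaperone genes, Dnaja2, Dnajb6 and Dnajb14, all FLX arrays lay above all VEH arrays, and in 0 they lay below, beside 2.62% and 1.65% of all genes. By replicate number, 23 chaperone genes were higher in FLX in 3 of 3 pairs and 8 were lower, where 20.2% and 13.6% of all genes were. The 8 were Dnajc1, Dnajc14, Dnajc15, Dnajc17, Dnajc21, Hspa12b, Hspb1 and Hspb2. The median difference of the chaperone genes was 0.10 in pair 1, 0.00 in pair 2 and 0.32 in pair 3, against 0.01, -0.01 and 0.15 over all genes. The median was highest in pair 3.

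By class, the median log2 difference between FLX and VEH was 0.15 in DnaJ A, 0.19 in DnaJ B, 0.13 in DnaJ C and 0.17 in HSP70 genes. It was -0.15 in the small heat shock proteins, with 3 genes positive and 3 negative. By role, it was 0.36 in the 11 ER genes, with 10 positive, and 0.12 in the 13 heat-inducible genes, with 9 positive. In the ER genes the median was 0.21, 0.04 and 0.79 in pairs 1, 2 and 3. The ER median turned with the array left out, being 0.90 when FLX replicate 3 was left out, -0.58 when VEH replicate 3 was, and 0.15 when both were. That of the small heat shock proteins was 0.33, -0.73 and -0.27 in the same order.

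**Figure D1:**
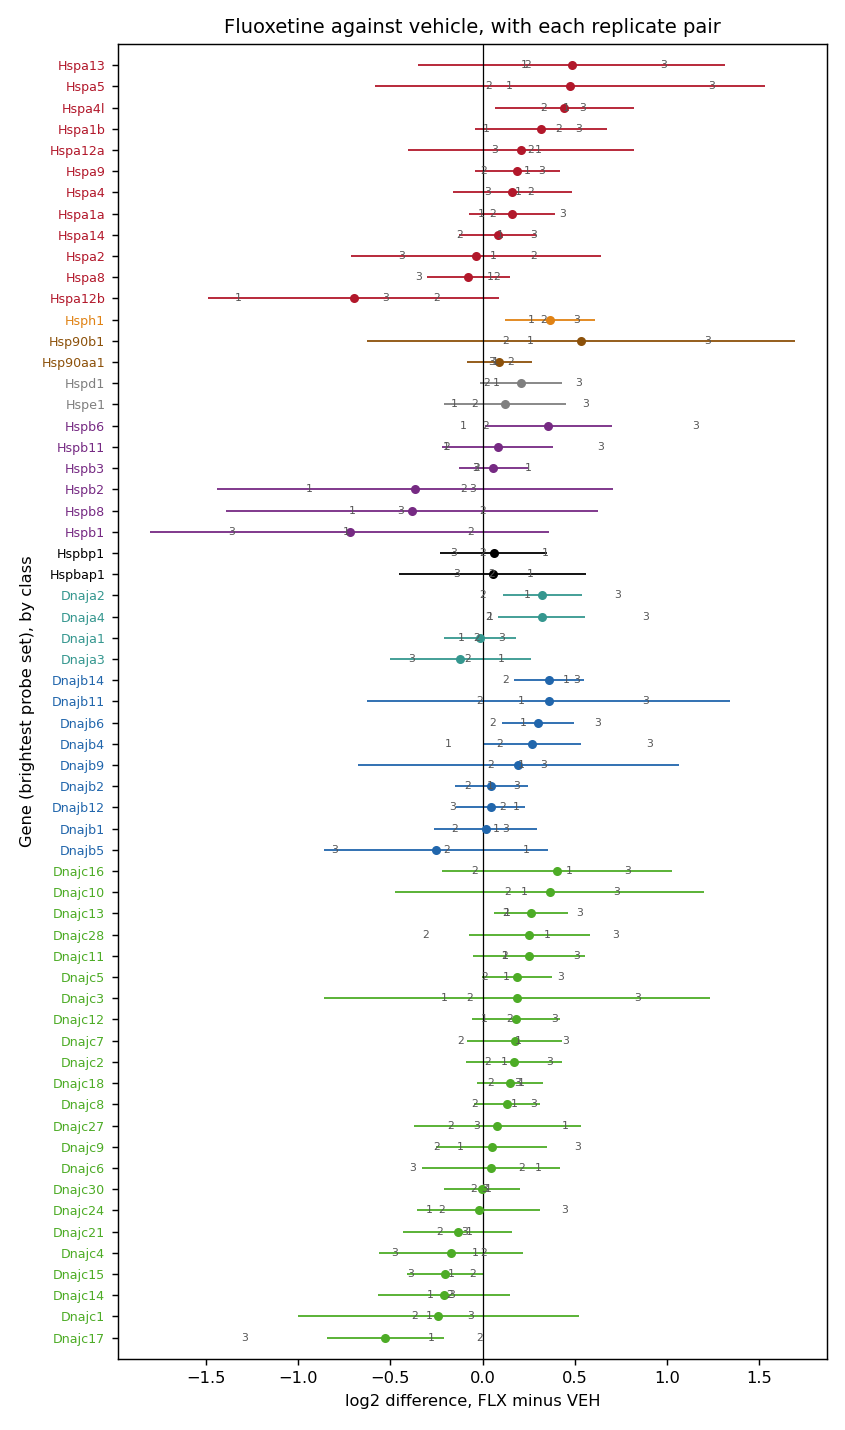
Log2 difference, FLX minus VEH, of the brightest probe set of each of the 61 tested chaperone genes, in order of class and coloured by class. Points are means of 3 arrays per group, bars are 1 standard error from limma to each side, and the digits 1 to 3 mark the difference in each replicate pair. No gene passed an adjusted p of 0.05, and the digit 3 lies to the right of the mean in most ER genes.

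Relative to the mean log2 value of replicates 1 and 2 of the same treatment, replicate 3 differed by -3.22 to 1.43 in FLX and -3.47 to 1.98 in VEH among the chaperone genes, against -0.72 to 0.53 between FLX and VEH. In all, 22 of the 61 chaperone genes had both replicate 3 arrays below the other 4 arrays, 23 had both above, and 16 overlapped. Over all genes 35.2% had both below and 33% both above, so these shares are near the background. Replicate 3 was at least 2-fold lower in both treatments in 13 chaperone genes, beside 16.5% of all genes, and at least 2-fold higher in both in 3, beside 5.07%. The classes differed in direction. The ER genes had median differences of -1.83 in FLX and -2.37 in VEH, and the small heat shock proteins of -1.33 and -1.67. The HSP70 genes had 0.49 in FLX and 0.39 in VEH, whereas over all genes the medians were 0.05 and -0.10. No test was made, since replicate 3 is a description of 2 arrays that stand apart from the others.

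**Figure D2:**
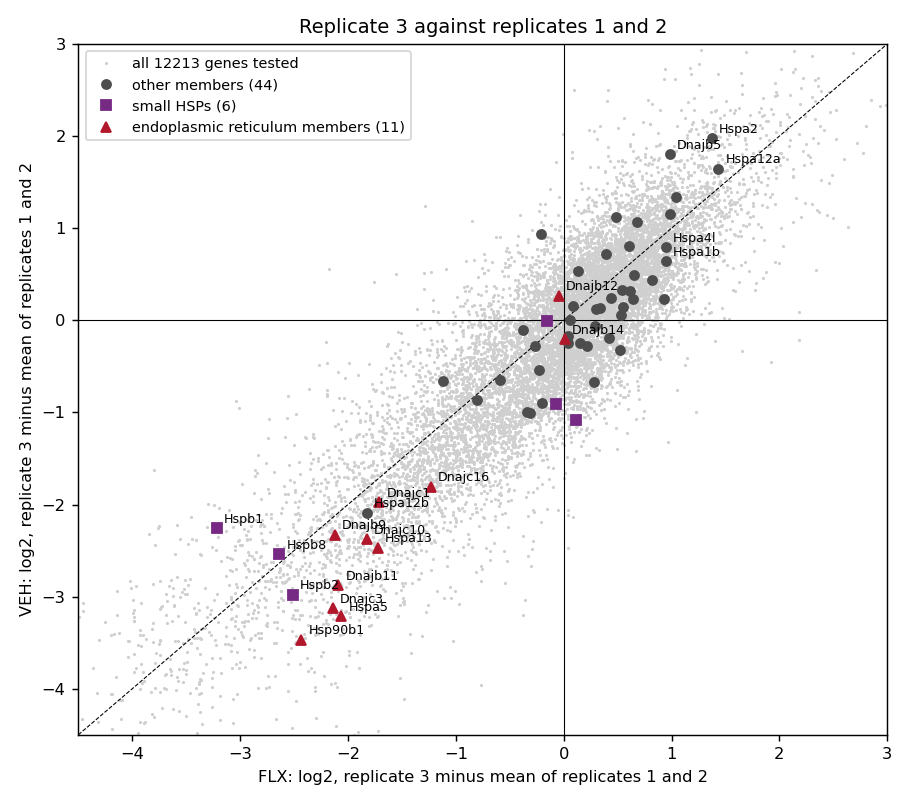
Log2 value of the replicate 3 array minus the mean of replicates 1 and 2, in FLX (horizontal axis) and in VEH (vertical axis), for each gene tested. Grey points are all 12213 genes, and larger symbols are the 61 chaperone genes. Among the ER genes 9 of 11 lie at the lower left, at least 2-fold lower in both treatments, and Hspa2, Hspa12a and Dnajb5 lie at the upper right.

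By their brightest probe sets, 9 of 11 tested genes of the ER list were lower in replicate 3 of both treatments, each at least 2-fold. The list was drawn up with earlier results known and may not hold every ER chaperone. Dnajc14 and Dnajc18, which are not on it, did not reach 2-fold. In replicate 3 Dnajc14 differed by -0.80 log2 in FLX and -0.86 in VEH, and Dnajc18 by 0.06 and -0.0016. Over all genes 16.5% were at least 2-fold lower in both. Hspa5 encodes BiP, the HSP70 of the ER lumen and master regulator of its stress sensors. It had 2284 in FLX replicate 3, against 8262 and 10985 in FLX replicates 1 and 2, and 966 in VEH replicate 3, against 7491 and 10741 in VEH replicates 1 and 2. Replicate 3 was therefore 4.17-fold lower in FLX and 9.29-fold lower in VEH. Hsp90b1, the ER form of HSP90 known as GRP94, had 2359 in FLX replicate 3, against 11582 and 14051, and 1013 in VEH replicate 3, against 9702 and 12911. These differences were 5.41-fold in FLX and 11.1-fold in VEH, the lowest mean log2 difference of any chaperone gene in replicate 3. Hspa5 and Hsp90b1 carry the ER stress elements printed above, as does Dnajc3.

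The ER J-domain genes followed. Dnajc3 encodes P58IPK, a BiP partner that restrains the stress kinase PERK, and was 4.42-fold lower in replicate 3 of FLX and 8.73-fold lower in that of VEH. Dnajb11, which binds nascent chains in the lumen, was 4.25-fold and 7.34-fold lower. Dnajb9, a BiP co-chaperone induced by ER stress, was 4.35-fold lower in FLX and 5.01-fold lower in VEH. Dnajc10, a disulphide reductase, was 3.55-fold and 5.18-fold lower, and Hspa13, a microsomal HSP70, 3.31-fold and 5.54-fold lower. Dnajc1, of the ER membrane, was 3.27-fold lower in FLX and 3.93-fold lower in VEH, and Dnajc16 was 2.35-fold and 3.49-fold lower. Of these 9 genes 3 hold an ER stress element in the window and 1, Dnajc10, a heat shock element. Further tested probe sets of Hspa13 and Dnajc1 were lower in replicate 3 by less than 2-fold. That of Hspa13 differed by -0.37 log2 in FLX and -0.69 in VEH, and that of Dnajc1 by -0.52 and -0.91.

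The other 2 tested genes of the ER list, Dnajb12 and Dnajb14, encode membrane proteins whose J domain faces the cytosol. Dnajb14 had 725, 703 and 720 in FLX arrays and 530, 644 and 507 in VEH arrays, so that the groups did not overlap and replicate 3 did not stand apart. Its log2 difference between FLX and VEH was 0.36 (SE 0.19), with an adjusted limma p of 0.9998. Dnajb12 lay between 162 and 205 in all 6 arrays.

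Within replicate 3, 9 of the 11 ER genes were higher in FLX than in VEH, as were 7507 of all 12213 genes. In pair 3 the difference was 1.24 log2 for Hspa5 and 1.22 for Hsp90b1, against 0.14 and 0.03 for Hspa5 and 0.26 and 0.12 for Hsp90b1 in pairs 1 and 2. Over all 3 pairs the difference was 0.47 (SE 1.06) for Hspa5 and 0.53 (SE 1.16) for Hsp90b1, with adjusted limma p of 0.9998 for both. These standard errors hold the offset of replicate 3, and with the replicate block they were 0.25 for Hspa5, with an adjusted p of 0.649, and 0.24 for Hsp90b1, with an adjusted p of 0.629. Without the VEH replicate 3 array, and with FLX replicate 3 kept, the differences were -0.60 for Hspa5 and -0.62 for Hsp90b1, and without both replicate 3 arrays 0.087 and 0.19. One further probe set of Hspa5, of the type that can match several transcripts, had 813 in FLX replicate 3, against 1060 and 961, and 1016 in VEH replicate 3, against 1058 and 939, and so did not show the large difference.

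**Figure D3:**
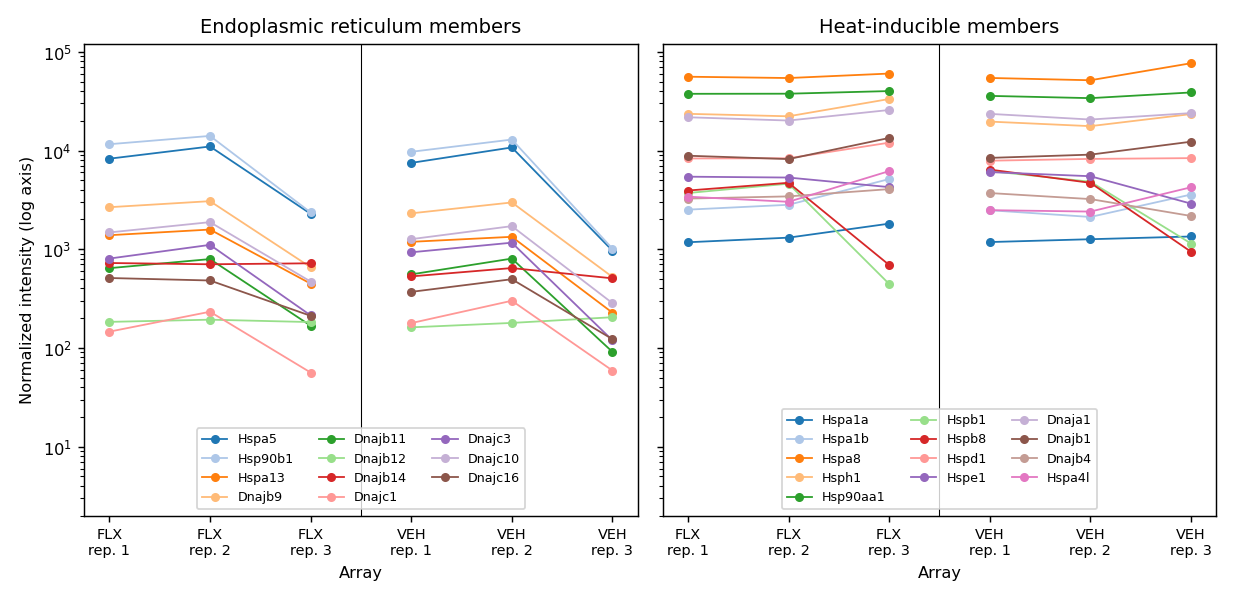
Normalized intensity (log axis) of the brightest probe set in each of the 6 arrays, for the ER members at left and the heat-inducible members at right, with lines joining the arrays of a group. In the left panel 9 of 11 genes are lowest in replicate 3 of both FLX and VEH. In the right panel Hspb1 and Hspb8 are lowest there, and most others are level or higher.

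The heat-inducible genes of the cytosol outside the small heat shock proteins differed by -0.08 to 0.44 log2 between FLX and VEH. Hspa1a and Hspa1b, the classic inducible HSP70 genes, are near-identical neighbours, so that their probe sets may share signal. Hspa1a had 1176, 1310 and 1815 in FLX arrays and 1182, 1262 and 1345 in VEH arrays, a log2 difference of 0.16 (SE 0.23). Hspa1b had 2516, 2819 and 5136 in FLX and 2482, 2122 and 3579 in VEH, a difference of 0.32 (SE 0.36). Both genes were highest in replicate 3 of each treatment, and the FLX and VEH arrays overlapped. Hspa8, the constitutive HSC70 that also uncoats clathrin vesicles, had 55910, 54228 and 60185 in FLX and 54323, 51496 and 76587 in VEH, with a difference of -0.08 (SE 0.23). Hspa4l, an HSP110 relative, had 3404, 3022 and 6185 in FLX and 2487, 2405 and 4241 in VEH. Its difference of 0.44 (SE 0.38) was positive in 3 of 3 pairs, with an unadjusted p of 0.283 in limma and 0.025 with the replicate block.

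Hsph1, the inducible HSP110 that recycles HSP70, had 23527, 22214 and 33250 in FLX and 19626, 17651 and 23392 in VEH. It was higher in FLX in 3 of 3 pairs, by 0.37 on average (SE 0.24), though the ranges of the groups overlapped. Hsp90aa1, the inducible cytosolic HSP90, had 37525, 37625 and 40009 in FLX and 35753, 33924 and 38735 in VEH, a difference of 0.09 (SE 0.18). Replicate 3 was the highest array of each treatment for both genes. Among the J-domain partners, Dnajb1, the main stress-induced HSP40, had 8851, 8185 and 13402 in FLX and 8417, 9081 and 12278 in VEH, with a difference of 0.02 (SE 0.28). Dnaja1, a farnesylated cytosolic HSP40, had 21719, 20115 and 25727 in FLX and 23510, 20593 and 23930 in VEH, and differed by -0.01 (SE 0.20). Dnajb4 had 3257, 3429 and 4062 in FLX and 3706, 3220 and 2172 in VEH, a difference of 0.27 (SE 0.26) with replicate 3 high in FLX and low in VEH. Of the 13 heat-inducible genes, 8 had both replicate 3 arrays above the others, beside 33% of all genes. Both were below in 3, Hspb1, Hspb8 and Hspe1, beside 35.2% of all genes. Adjusted limma p was 0.9998 for each of the 13 genes.

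Of the 6 tested small heat shock protein genes, 4 were lower in replicate 3 of both treatments, and 3 of them at least 2-fold. The class and its medians take in Hspb11, a member by its prefix only, which is among the 4. Over all genes 35.2% had both replicate 3 arrays below the others, and 16.5% were at least 2-fold lower in both. Hspb1 encodes HSP27, which protects the actin cytoskeleton. It had 444 in FLX replicate 3, against 3708 and 4613, and 1142 in VEH replicate 3, against 6189 and 4825, which is 9.31-fold lower in FLX and 4.78-fold lower in VEH. Hspb8, which works with Bag3 in clearing aggregates, had 692 in FLX replicate 3, against 3931 and 4709, and 942 in VEH replicate 3, against 6408 and 4703. A further tested probe set of Hspb8 differed in replicate 3 by only -0.53 log2 in FLX and -0.07 in VEH, and another by -1.49 and -1.32. Hspb2, a muscle-enriched partner of Hspb3, had 77.6 in FLX replicate 3, against 373 and 525, and 80.7 in VEH replicate 3, against 716 and 565. All 3 genes also had their highest array in VEH replicate 1. Between FLX and VEH, Hspb1 differed by -0.72 (SE 1.08), Hspb8 by -0.38 (SE 1.01) and Hspb2 by -0.37 (SE 1.07). Adjusted limma p was 0.9998 for each, and these standard errors hold the offset of replicate 3. With the replicate block they were 0.25, 0.19 and 0.21, with adjusted p of 0.623, 0.640 and 0.660. The unadjusted p of Hspb1 in that fit was 0.021. The pericyte and smooth muscle markers Acta2, Tagln and Pdgfrb were lower in FLX as well, by 0.73, 0.62 and 0.73 log2. So was Igf2 of the leptomeningeal and fibroblast list, by 0.85 log2. Each had an adjusted limma p of 0.9998, and of 0.623 with the block. All 5 tested pericyte and smooth muscle markers were lower in FLX on average, with log2 differences of -0.73 to -0.034. The pairs did not all go this way. Of the 5 markers, 2 were higher in FLX in pair 1, 2 in pair 2 and 1 in pair 3, and 2 were lower in 3 of 3 pairs. Of the 7 leptomeningeal and fibroblast markers 5 were lower and 2 higher, and in pair 2 alone 6 were higher in FLX. The summed pericyte and smooth muscle markers were 4235, 5150 and 2112 in FLX arrays and 8455, 6032 and 2208 in VEH arrays.

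Hspb6, also called HSP20, had 226, 209 and 235 in FLX and 243, 207 and 106 in VEH, a difference of 0.36 (SE 0.34) that rested on pair 3, where it was 1.16. Hspb3 lay between 247 and 303 in all 6 arrays. Hspb11, which bears the prefix but is a protein of intraflagellar transport, had both replicate 3 arrays below the others. Leptomeningeal markers were low in the same arrays, in 7 of 7 genes, and so were 3 of 5 tested pericyte and smooth muscle markers, whose summed level was 2112 in FLX replicate 3 and 2208 in VEH replicate 3, against 4235 to 8455. The pericyte marker Rgs5 was 3.90-fold higher in replicate 3 of FLX and 2.92-fold higher in that of VEH. Their part in the values of the small heat shock proteins and the ER genes was not tested.

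HSP70 genes outside the ER were mostly higher in replicate 3. Of the 12 tested HSP70 genes 8 were above in both treatments and 3 below, Hspa5, Hspa13 and Hspa12b, beside 33% and 35.2% of all genes. Hspa2, known from the testis and also present in brain, had 1742 in FLX replicate 3, against 708 and 638, and 2360 in VEH replicate 3, against 680 and 528. Hspa12a, a distant HSP70 relative enriched in brain, had 4680 in FLX replicate 3, against 1802 and 1671, and 4479 in VEH replicate 3, against 1465 and 1395. Replicate 3 was 2.59-fold higher in FLX and 3.94-fold higher in VEH for Hspa2, and 2.70-fold and 3.13-fold higher for Hspa12a. Hspa12b, its relative known from endothelial cells, went the other way, with 41.8 in FLX replicate 3, against 116 and 189, and 60.2 in VEH replicate 3, against 291 and 225. Hspa12b was lower in FLX in 3 of 3 pairs, by 0.70 on average (SE 0.79), with an unadjusted limma p of 0.409 and 0.017 with the replicate block. Endothelial markers summed to 267, 403 and 194 in FLX arrays and 384, 396 and 143 in VEH arrays. Of the 3 tested endothelial markers 2 were higher and 1 lower in FLX, with a median log2 difference of 0.25. The part of these markers was not tested. Hspa4 and the mitochondrial Hspa9 were above in replicate 3 of both treatments, Hspa4 by 1.52-fold in FLX and 1.75-fold in VEH.

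Mitochondrial chaperones lay on both sides in replicate 3. The genes of the chaperonin ring and lid, Hspd1 (HSP60) and Hspe1 (HSP10), share the promoter region printed above, yet differed in replicate 3. Hspd1 had 12007 in FLX replicate 3, against 8305 and 8343, and 8372 in VEH replicate 3, against 7883 and 8222, so that both arrays lay above the others. Hspe1 had 4256 in FLX replicate 3, against 5429 and 5321, and 2896 in VEH replicate 3, against 6043 and 5489, so that both lay below. Between FLX and VEH they differed by 0.21 (SE 0.22) and 0.12 (SE 0.33). Of the 9 mitochondrial genes 5 were above in replicate 3 of both treatments and 3 below, beside 33% and 35.2% of all genes. Among the 5 were Dnaja3, the HSP40 of the matrix, at 1.60-fold in FLX and 2.10-fold in VEH, and Dnajc28 at 1.90-fold and 1.17-fold.

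**Figure D4:**
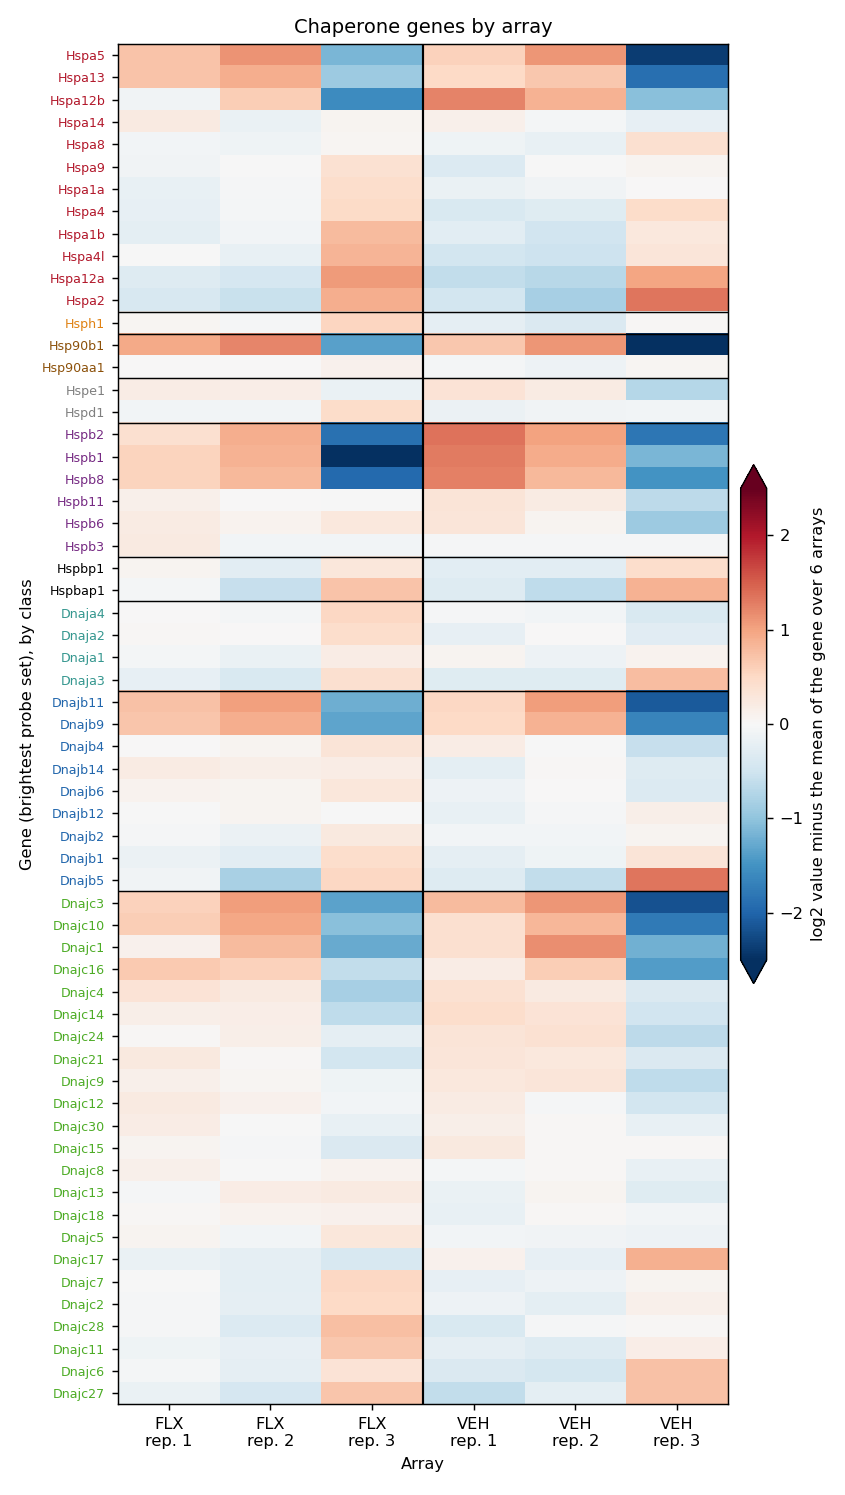
Log2 value of each tested chaperone gene in each of the 6 arrays, minus the mean of the gene over the arrays (red above, blue below), in order of class. The thick line parts FLX from VEH. Blue cells in both replicate 3 columns mark Hspa5, Hsp90b1, Hspb1, Hspb2, Hspb8, Dnajb11 and Dnajc3, whereas Hspa2 and Hspa12a are red there.

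Among the remaining cytosolic J-domain genes, Dnaja2, a general HSP70 partner, had 6890, 6750 and 9128 in FLX and 5833, 6747 and 5508 in VEH, a difference of 0.32 (SE 0.22), with FLX replicate 2 and VEH replicate 2 nearly equal. Dnaja4 had 2339, 2259 and 3302 in FLX and 2271, 2208 and 1790 in VEH, a difference of 0.32 (SE 0.24) that rested on pair 3, where it was 0.88. Dnajb6, a suppressor of polyglutamine aggregation, had 12984, 12777 and 14927 in FLX and 11134, 12313 and 9679 in VEH, and was higher by 0.30 (SE 0.20) with no overlap between the groups. In each of these 3 genes replicate 3 was the highest FLX array and the lowest VEH array. Dnajb5 had 2001 in FLX replicate 3, against 1299 and 790, and 3488 in VEH replicate 3, against 1105 and 904, which is 1.97-fold higher in FLX and 3.49-fold higher in VEH. Its difference between FLX and VEH was -0.25 (SE 0.61).

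Among DnaJ C genes with RNA roles, Dnajc17, linked to splicing, had 926, 898 and 788 in FLX and 1122, 907 and 1932 in VEH. It was lower in FLX by 0.53 (SE 0.32), with -1.29 in pair 3 and -0.01 in pair 2. Its unadjusted limma p was 0.146 and its adjusted one 0.9998. The other tested probe set of Dnajc17 differed by -0.015, with 649 in FLX replicate 3 and 625 in VEH replicate 3. The 6 genes of splicing, ribosome, histone and tRNA roles had 3 positive and 3 negative differences, with a median of 0.01. Of the vesicle genes, Dnajc13, of endosomes, had 496, 580 and 595 in FLX and 453, 533 and 414 in VEH, and was higher in FLX in 3 of 3 pairs by 0.26 (SE 0.20). Dnajc6, the neuronal auxilin, was above in replicate 3 of both treatments, by 1.40-fold in FLX and 2.18-fold in VEH. Dnajc5, the cysteine string protein of synaptic vesicles, lay between 9432 and 12649. Over the 23 tested DnaJ C genes, 6 were above and 11 below in both replicate 3 arrays, beside 33% and 35.2% of all genes. At least 2-fold lower in both were 4, beside 16.5% of all genes, namely the ER genes Dnajc1, Dnajc3, Dnajc10 and Dnajc16.

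Of the 2 genes that bind heat shock proteins, Hspbp1, a nucleotide exchange factor of HSP70, had 2906, 2293 and 3387 in FLX and 2302, 2293 and 3777 in VEH, a difference of 0.06 (SE 0.29). Hspbap1, which binds Hspb1, had 232 in FLX replicate 3, against 136 and 94.5, and 257 in VEH replicate 3, against 113 and 91.2. Its difference between FLX and VEH was 0.06 (SE 0.51), and both replicate 3 arrays lay above the others. The 11 genes below the minimum, Dnajb3, Dnajb7, Dnajb8, Dnajb13, Dnajc5b, Dnajc5g, Dnajc22, Dnajc25, Hspa1l, Hspb7 and Hspb9, had values of 3.14 to 32.5 over all arrays. Several of them are known from the testis.

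Other genes of the chaperone system were set beside them, from lists that do not overlap the 72. Of 19 tested genes of ER folding and stress, 17 had both replicate 3 arrays below the other arrays, beside 35.2% of all genes. In 14 replicate 3 was at least 2-fold lower in both treatments, beside 16.5% of all genes. The median differences were -1.68 in FLX and -1.89 in VEH. Canx, the membrane lectin calnexin, had 1920 in FLX replicate 3, against 6704 and 8394, and 1409 in VEH replicate 3, against 5614 and 7224. P4hb, the disulphide isomerase PDI, had 522 in FLX replicate 3, against 2478 and 4553, and 335 in VEH replicate 3, against 2540 and 4104. The 2 that overlapped were Atf6 and Ddit3, a stress sensor and a stress-induced transcription factor. Ddit3 had the smallest unadjusted p of the list between FLX and VEH, 0.076 for a difference of -0.43 (SE 0.20), and Atf6 differed by 0.38 (SE 0.24). Sec63, a J-domain protein of the ER translocon, was 4.01-fold lower in replicate 3 of FLX and 3.28-fold lower in that of VEH.

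The partners of the cytosol lay on both sides. Over all genes 33% had both replicate 3 arrays above the other 4 arrays and 35.2% had both below. Of 14 genes of the TRiC chaperonin and prefoldin, 3 were above and 1 below in both replicate 3 arrays, and Pfdn5 and Tcp1 differed between FLX and VEH by -0.40 (SE 0.21) and 0.37 (SE 0.20). Of 18 co-chaperones of HSP90 and HSP70, 7 were above and 2 below, Fkbp5 and Stub1. Tomm70a and Ahsa2 had the smallest unadjusted p of that list between FLX and VEH, 0.271 and 0.279, with differences of 0.31 (SE 0.26) and 0.26 (SE 0.22). Of 10 nucleotide exchange factors, 2 were above and 3 below, Bag1, Bag3 and Sil1, the last of which serves BiP in the ER. Bag3, the partner of Hspb8, had 212 in FLX replicate 3, against 683 and 897, and 226 in VEH replicate 3, against 970 and 951. Hyou1, the ER form of HSP110, went both ways, with 255 in FLX replicate 3 and 870 in VEH replicate 3. Grpel2 differed between FLX and VEH by 0.20 (SE 0.19) and Hyou1 by -0.40 (SE 0.48). Cryab, an alpha-crystallin small heat shock protein, was lower in replicate 3 by 0.69 log2 in FLX and 0.66 in VEH. Clpp and Afg3l2, of mitochondrial proteolysis, differed between FLX and VEH by -0.34 (SE 0.21) and 0.27 (SE 0.21), Hscb and Gak, J-domain proteins of other names, by -0.10 (SE 0.26) and 0.09 (SE 0.27), and Hsbp1, which binds heat shock factor 1, by 0.20 (SE 0.20). No gene of these lists passed an adjusted limma p of 0.05 between FLX and VEH.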

How the data were processed

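The deposited values are probe set intensities, made by the authors with GCRMA according to the submitters' processing notes, and the sources used here give no version. They are on a linear scale from 1.60 to 76587, with 1 column per array. Per the labels' protocols, 15 ng of immunoprecipitated RNA was amplified in 2 cycles. Of 45101 probe sets, 64 controls were left out. The platform annotation gave 1 symbol to 34945 and several to 932. Hsp90ab1 is not analysed here. The submitters' list of neuronal probe sets was not used here. The number of arrays limits the precision, and whether replicates came from separate mice is not stated, so a p-value measures only the spread between these arrays.

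FLX was compared with VEH in limma 3.58.1 (R 4.3.3) on log2 values with no pseudocount, treatment only, two-sided, with Benjamini-Hochberg adjustment over the 22200 probe sets with a group mean of 50 or more, at a threshold of 0.05. The script was tested on simulated data. A log2 difference is FLX minus VEH. The replicate numbers were taken as pairs, which the labels do not state. Array deviations from the group means correlated at r = 0.704, 0.843 and 0.873 in pairs 1 to 3. Since replicate 3 stands apart in both groups, its offset enters the deviation of every array. These correlations therefore cannot show that replicates 1 or 2 of FLX and VEH belong together. A replicate block, filters, a pseudocount of 16, median centring, array weights, other probe sets and leaving out arrays were tried. Members, lists and tests were chosen with earlier results of these data known. Per array values are given for heat-inducible genes, the 2 smallest p-values of each class, and the 4 genes with the largest replicate 3 difference each way. Other genes with values in the text were chosen after their values were seen. Of each list of other pathway genes the 2 with the smallest p were named.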

Additional observations from a re-analysis of the deposited data

How the results depend on the processing

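The count of probe sets and of chaperone genes past an adjusted p of 0.05 was 0 under every alternative run, the replicate block included. At an unadjusted p under 0.05 the block raised the count of chaperone genes from 0 in each direction to 2 higher and 2 lower, and that of all genes from 21 higher and 16 lower to 440 and 493. The lowest adjusted limma p of any named gene was 0.484. Chaperone genes with a positive FLX minus VEH difference numbered 36 to 45, and 9 ER genes had both replicate 3 arrays below the others under median centring and with probe sets averaged. Of 29 named genes, 12 kept the sign of their difference in every setting. With the treated and vehicle groups at 3 arrays each, the number of arrays limits the precision. The cause of the changes below was not tested.

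Leaving out 1 array at a time, the log2 difference between FLX and VEH ranged from -0.023 to 0.29 for Hspa1a, -0.19 to 0.10 for Hspa8, -1.47 to 0.35 for Hspb1, -1.23 to 0.50 for Hspb8, -0.21 to 0.32 for Hspe1, -0.11 to 0.063 for Dnaja1 and -0.20 to 0.18 for Dnajb1. It ranged from -0.071 to 0.30 for Hspbp1, -0.29 to 0.50 for Hspbap1, -0.62 to 1.34 for Hsp90b1, -0.0067 to 0.59 for Hspb6, -1.36 to 0.47 for Hspb2, -0.60 to 1.16 for Hspa5, -0.49 to 0.62 for Hspa2, -0.27 to 0.76 for Hspa12a and -0.63 to 0.35 for Dnajb5. The medians ranged from -0.10 to 0.16 for DnaJ C and -0.23 to 0.14 for the splicing and RNA genes, -0.58 to 0.90 for the ER genes, -0.73 to 0.33 for the small heat shock proteins and -0.24 to 0.70 for HSP90, lowest without VEH replicate 3. The HSP70 median ranged from -0.011 to 0.26, lowest without FLX replicate 3. Without both replicate 3 arrays the difference was 0.058 for Hspa8, -0.10 for Hspe1, -0.039 for Dnajb1, -0.048 for Dnajb4, -0.045 for Hspb6, 0.17 for Hspa2 and 0.020 for Dnajb5. With array weights it was -0.0083 for Hspa1a, 0.063 for Hspa8, -0.077 for Hspe1, -0.0075 for Dnajb1, -0.042 for Dnajb4, -0.012 for Hspa5, 0.20 for Hspa2 and 0.19 for Dnajb5. Averaging the probe sets of a gene gave 0.045 for Hspa8, 0.15 for Dnaja1 and -0.032 for Dnajb1, and median centring gave -0.0070 for Dnajb1. The DnaJ B median was 0.043 with no filter.

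Median centring raised the replicate 3 difference by 0.07 in FLX and 0.22 in VEH. The VEH median of replicate 3 minus replicates 1 and 2 then became 0.046 over all members, 0.016 for DnaJ B, -0.026 for DnaJ C, 0.61 for HSP70 and -1.45 for small heat shock proteins. With probe sets averaged it was -0.0049 over all members, 0.0066 for DnaJ B and -1.20 for small heat shock proteins in VEH, and 0.20 over all members, -0.85 for small heat shock proteins and -1.50 for ER genes in FLX. With no filter it was 0.25 for HSP70 in VEH, and -0.11 in FLX and -0.998 in VEH for small heat shock proteins. Leaving out 1 array of replicates 1 and 2 moved the ER median in FLX between -2.05 and -1.65.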

Other observations

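Dnajc19, a J-domain protein of the mitochondrial import motor, was outside the 72 genes because its probe sets name a pseudogene as well. Its brightest probe set had 1016 in FLX replicate 3, against 2295 and 2003, and 892 in VEH replicate 3, against 2701 and 2440. The next had 174 in FLX replicate 3, against 544 and 486, and 145 in VEH replicate 3, against 690 and 604. Both were lower in replicate 3 of each treatment, by 1.08 and 1.57 log2 in FLX and 1.52 and 2.15 in VEH.

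Different probe sets of a gene mostly had the same sign. Of 68 further tested probe sets of 41 chaperone genes, 58 had the same sign of the mean replicate 3 difference as the brightest probe set and 48 the same sign of FLX minus VEH. Those that differed in the sign of replicate 3 belong to Dnaja4, Dnajb4, Dnajb6, Dnajb12, Dnajb14, Dnajc2, Dnajc21 and Hspa14.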
